A study of Mus musculus with 6 samples.

Results

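Sox9, Sox4, Spp1, Cd44, Onecut2 and Cftr were followed in RNA from isolated mouse hepatocytes. They were chosen by name as genes of biliary fate and of hepatocyte-to-duct conversion. They are 6 of the 48432 genes listed, and all 6 were found by matching gene identifiers to symbols. Hepatocytes came from FVB mice in 3 groups of 2 samples. These were normal fed adults, DDC fed adults kept 4 weeks on that diet, and embryos of day 18 (E18), each E18 sample pooling about 8 livers. All groups share the strain, and the labels name no transgene or reporter that would follow hepatocytes by descent. DDC feeding blocks haem synthesis, plugs small ducts with porphyrin and brings on a ductular reaction around the portal tracts. Values are TPM, transcript shares per length that sum to 1000000 in each sample. The samples of a group are called 0 and 1, as the value columns number them.

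Hepatocytes and the cholangiocytes that line bile ducts descend from one embryonic progenitor, the hepatoblast. Notch, TGF-beta and YAP signalling near the portal vein push hepatoblasts toward the duct, and the same signals can switch on duct genes in adult hepatocytes after injury. SOX9 and SOX4 are the transcription factors that pattern the duct, ONECUT2 belongs to a family of factors used by both hepatoblasts and hepatocytes, and osteopontin (Spp1), CD44 and the chloride channel CFTR are products that mark the duct cell or the injured hepatocyte.

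The levels of the 6 genes differed in pattern. Sox9 was high in DDC fed samples alone. Sox4, Spp1 and Cd44 were near 0 or at about 2 TPM in normal fed samples, and higher in both DDC fed and E18 samples. Markers of other cell types also differed between the groups, and their part in these levels was not tested. Onecut2 was present in normal fed samples and was not higher in either of the other groups at the threshold. Both E18 values of Onecut2 were below all others, a difference that missed the threshold as fitted and passed under several settings. Cftr stayed below 1 TPM in every sample.

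**Figure D1:**
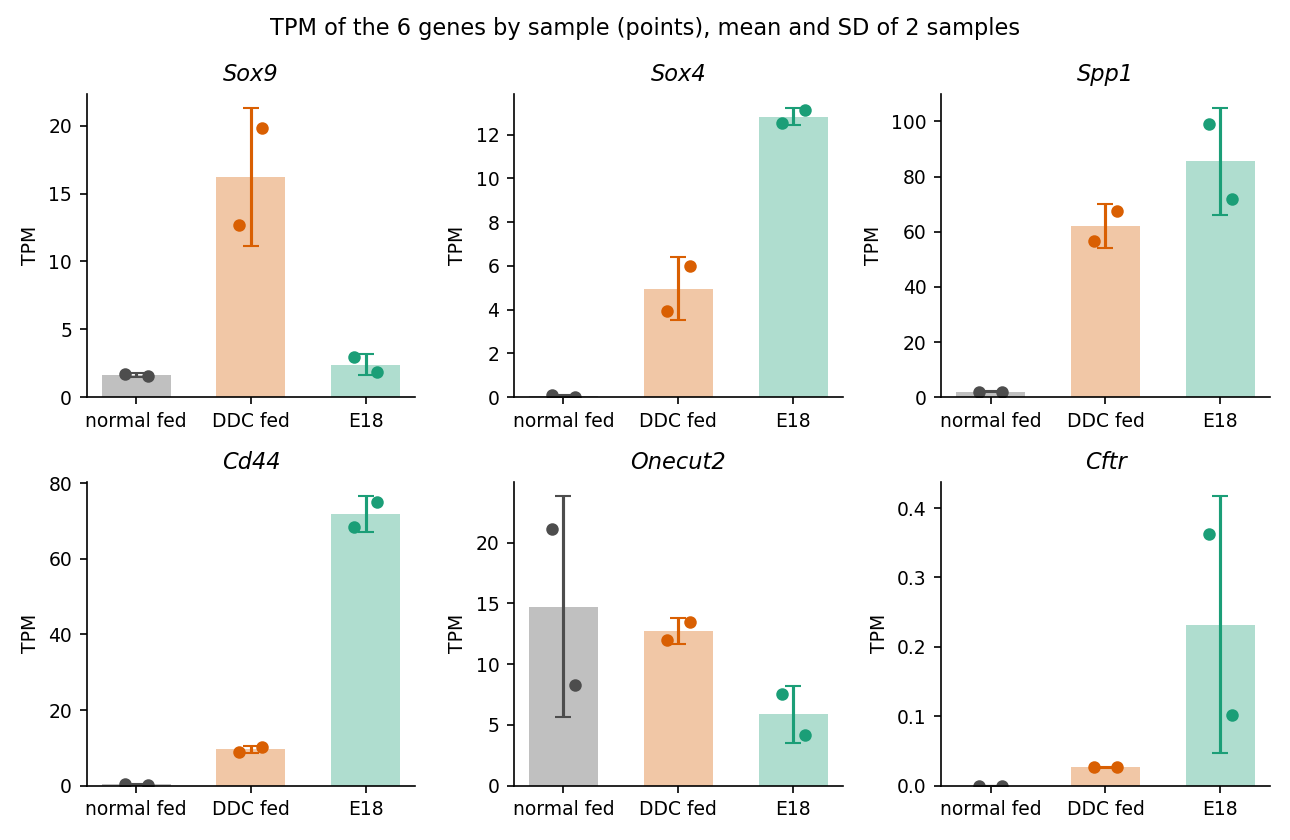
TPM of the 6 genes (vertical axes, linear, each starting at 0) in the normal fed, DDC fed and E18 groups. Points are samples, bars are means of 2 samples and whiskers are SD. Sox9 stands out in the DDC fed group, Cd44 in the E18 group, and Cftr reaches only 0.363 TPM.

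The promoters of 4 of the 6 genes were at hand (RefSeq, GRCm38.p6), each running from 250 bases before to 50 bases after the annotated transcript start. Those of Sox4, Spp1 and Cd44 are shown because these genes were high together in DDC fed and E18 samples. They lie at chr13:28953650-28953949 on the minus strand, chr5:104434861-104435160 on the plus strand (the first of a pair of Spp1 starts) and chr2:102901616-102901915 on the minus strand, and are written 5′ to 3′ along the gene. Capitals mark matches to the TEAD motif GGAATG and the RBPJ motif TGGGAA (or its reverse complement TTCCCA).
Sox4: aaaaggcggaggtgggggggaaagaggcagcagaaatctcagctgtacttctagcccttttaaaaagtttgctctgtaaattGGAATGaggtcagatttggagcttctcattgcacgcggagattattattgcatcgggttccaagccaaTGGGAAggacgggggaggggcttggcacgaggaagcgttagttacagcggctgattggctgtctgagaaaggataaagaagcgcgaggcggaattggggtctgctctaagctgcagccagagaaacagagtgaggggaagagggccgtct
Spp1: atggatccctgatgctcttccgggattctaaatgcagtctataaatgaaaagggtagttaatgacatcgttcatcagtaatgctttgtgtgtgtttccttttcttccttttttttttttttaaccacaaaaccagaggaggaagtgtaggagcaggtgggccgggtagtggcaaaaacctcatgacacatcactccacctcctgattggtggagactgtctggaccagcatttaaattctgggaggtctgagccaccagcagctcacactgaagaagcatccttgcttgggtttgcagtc
Cd44: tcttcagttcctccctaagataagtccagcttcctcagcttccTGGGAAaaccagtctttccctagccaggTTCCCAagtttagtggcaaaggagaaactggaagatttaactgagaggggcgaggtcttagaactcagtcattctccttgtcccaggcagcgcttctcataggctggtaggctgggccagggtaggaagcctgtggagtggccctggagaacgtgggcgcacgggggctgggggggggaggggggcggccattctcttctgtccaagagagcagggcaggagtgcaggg

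The motifs described, searched on both strands, were GGAATG for TEAD, the DNA-binding partners of YAP, TGGGAA for RBPJ, which carries the Notch signal to DNA, TGANTCA for AP-1, ATTGTT for SOX factors, ATCGAT for ONECUT factors and CANNTG for the E-box. The Sox4 promoter holds a TEAD match at position -168 and an RBPJ match at position -100 relative to the transcript start. The Cd44 promoter holds an RBPJ match on each strand, at -207 and -179. The Spp1 promoter holds neither motif and so has no capitals. Of 32851 mouse promoters of the same length, 14.7% held the TEAD letters and 25.6% the RBPJ letters, so such matches are common. None of these 3 promoters held the AP-1 letters (7.81% of promoters), the SOX letters (10.7%) or the ONECUT letters (0.925%). The E-box, present in 72.3% of promoters, was found at -211 in Sox4 and at -98 in Spp1, and is not capitalised. No matches overlapped one another in the printed promoters, and a match describes only the letters in these windows.

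Tests used limma on log2(TPM + 1) over all 6 samples, and a fold change is on that scale, which understates the change of low genes. "Passed" means an adjusted p under 0.05 over 14307 tested genes. Nothing in the labels ties each adult sample to an animal of its own, so p-values here cover only the spread between the samples at hand. The bulk RNA also cannot tell fewer cells of a type from less RNA per cell. The 3 comparisons share samples, so their values are given side by side.

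Many genes passed in every comparison. Against normal fed, 37.3% of tested genes passed in DDC fed (34.2% higher, 3.07% lower) with a median log2 fold change of 0.45 over all tested genes, and 75.7% passed in E18 (63% higher, 12.7% lower) with a median of 1.06. Between DDC fed and E18, 64.7% passed (17.7% higher in DDC fed, 47% lower) with a median of -0.55. After median-ratio scaling these medians were 0, 0.09 and -0.08, and the calls split into 2936 higher and 1662 lower in DDC fed, against 4896 and 439 as reported. The split became 5434 and 4554 in E18, against 9020 and 1815. For DDC fed against E18 it became 3987 and 4877, against 2532 and 6723. The fold of each tested member minus the median of all genes is therefore given below as its value relative to the median.

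Sox9 encodes the transcription factor that is first switched on when hepatoblasts form a duct, and in adult liver it marks duct cells and the hepatocytes next to the portal vein. The gene (ENSMUSG00000000567.5) lies on the plus strand at chr11:112782224-112787760 (GRCm38). It measured 1.73 and 1.54 TPM in normal fed samples, 12.7 and 19.8 TPM in DDC fed samples, and 2.95 and 1.84 TPM in E18 samples. Both DDC fed samples were above all others, and the E18 samples lay just above the normal fed ones without overlap. The log2 fold change of Sox9 in DDC fed against normal fed was 2.68 ± 0.27 (SE; adjusted p = 0.00055), or 2.23 relative to the median. Against E18 it was 2.33 ± 0.27 higher in DDC fed (adjusted p = 0.00036), or 2.88 relative to the median.

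E18 against normal fed gave 0.35 ± 0.27 for Sox9, with a 95% interval from -0.30 to 1.0 (adjusted p = 0.281). This was below the median of all genes by 0.72 on the log2 scale, as the value relative to the median was -0.72. Its sign depended on scaling. The log2 fold change of Sox9 became -0.45 (adjusted p = 0.153) after median-ratio scaling, -0.73 (0.0348) after correction for exon length and -1.33 (0.0019) after quantile normalization. Ranked within each sample, Sox9 stood at percentiles 30.2 and 32.2 of the tested genes in normal fed, 53.9 and 63.2 in DDC fed, and 16.1 and 11.3 in E18.

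Sox4 encodes a SOX factor that acts with SOX9 in shaping the duct during development. The gene (ENSMUSG00000076431.4) lies on the minus strand at chr13:28948919-28953713. It measured 0.0768 and 0.0116 TPM in normal fed samples, 3.94 and 5.98 TPM in DDC fed samples, and 12.6 and 13.1 TPM in E18 samples. The 3 groups did not overlap, and the order was normal fed, DDC fed, E18. The log2 fold change was 2.49 ± 0.21 in DDC fed (adjusted p = 0.0003) and 3.73 ± 0.21 in E18 (7.5e-06), or 2.04 and 2.66 relative to the median. DDC fed against E18 gave -1.24 ± 0.21 (adjusted p = 0.0022), or -0.69 relative to the median, and -0.44 (0.0905) after quantile normalization. Because the normal fed values are below the pseudocount of 1 TPM, the size of the Sox4 fold in DDC fed rests on it, at 5.14 with a pseudocount of 0.1 and 0.97 with a pseudocount of 5, with the call kept at both.

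The 2 SOX genes therefore differed in where they were highest. The ratio of Sox9 to Sox4 TPM within a sample was 22.6 and 133 in normal fed, 3.21 and 3.32 in DDC fed, and 0.235 and 0.140 in E18. Sox9 exceeded Sox4 in all 4 adult samples and was below it in both E18 samples. The high ratios of the normal fed samples rest on Sox4 values under 0.1 TPM.

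Spp1 encodes osteopontin, a secreted matrix glycoprotein made by duct cells, and also by macrophages. The gene (ENSMUSG00000029304.14) lies on the plus strand at chr5:104435118-104441050. It measured 2.01 and 1.81 TPM in normal fed samples, 56.5 and 67.6 TPM in DDC fed samples, and 99.2 and 71.8 TPM in E18 samples. Every DDC fed and E18 sample was above both normal fed samples, and the DDC fed and E18 groups lay next to each other without overlap. The log2 fold change was 4.43 ± 0.23 in DDC fed (adjusted p = 5.1e-05) and 4.88 ± 0.23 in E18 (3.6e-06), or 3.98 and 3.81 relative to the median. DDC fed against E18 gave -0.44 ± 0.23 for Spp1, with a 95% interval from -0.99 to 0.10 (adjusted p = 0.130). Relative to the median this difference was 0.10. It was 0.08 (0.753) after median-ratio scaling, so the order of these neighbours is not settled.

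Cd44 encodes a cell-surface receptor for hyaluronan and osteopontin that is low in resting hepatocytes and is also carried by leukocytes. The gene (ENSMUSG00000005087.17) lies on the minus strand at chr2:102811141-102901665. It measured 0.515 and 0.239 TPM in normal fed samples, 8.96 and 10.2 TPM in DDC fed samples, and 68.4 and 75.1 TPM in E18 samples. The groups did not overlap and the order was normal fed, DDC fed, E18. The log2 fold change of Cd44 was 2.95 ± 0.21 in DDC fed (adjusted p = 0.00017), 5.73 ± 0.21 in E18 (1.7e-06) and -2.78 ± 0.21 in DDC fed against E18 (4.4e-05). Relative to the median these were 2.49, 4.66 and -2.24. A pseudocount of 5 brought the DDC fed fold of Cd44 down to 1.44, with the call kept.

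Spp1 outweighed Cd44 in every sample but 1. The ratio of Spp1 to Cd44 TPM was 3.91 and 7.57 in normal fed, 6.31 and 6.63 in DDC fed, and 1.45 and 0.956 in E18. The ratio of Spp1 to Sox9 within a sample was 1.16 and 1.17 in normal fed, 4.47 and 3.41 in DDC fed, and 33.6 and 39.1 in E18.

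Onecut2 encodes a cut-homeodomain factor of the hepatoblast that acts beside its relative ONECUT1. The gene is ENSMUSG00000045991.18. It measured 21.1 and 8.32 TPM in normal fed samples, 12 and 13.5 TPM in DDC fed samples, and 7.53 and 4.19 TPM in E18 samples. Both DDC fed values lay between the normal fed values, and both E18 values were below all others. The DDC fed fold change was -0.07 ± 0.44 on the log2 scale, with a 95% interval from -1.11 to 0.97 (adjusted p = 0.930). Relative to the median it was -0.52.

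For Onecut2, E18 against normal fed gave -1.11 ± 0.44 (adjusted p = 0.0525), or -2.18 relative to the median. DDC fed against E18 gave 1.04 ± 0.44 (0.0730), or 1.59 relative to the median. Both missed the threshold as fitted and passed it under several settings. Without normal fed sample 1 the E18 value of Onecut2 was -1.74 (adjusted p = 0.0038), and after median-ratio scaling it was -2.17 (0.0018). The DDC fed against E18 difference of Onecut2 passed when normal fed sample 0 (adjusted p = 0.0128) or sample 1 (0.0126) was left out. Without normal fed sample 0, the DDC fed fold of Onecut2 turned to 0.56.

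Cftr encodes the chloride channel on the duct-facing side of cholangiocytes, which hepatocytes lack. The gene (ENSMUSG00000041301.15) lies on the plus strand at chr6:18170687-18322768. It was listed at 0 in both normal fed samples, at 0.0270 and 0.0262 TPM in DDC fed samples, and at 0.363 and 0.102 TPM in E18 samples. All values were under the minimum of 1 TPM in at least 2 samples, so it was not tested. With no such filter, Cftr gave a log2 fold change of 0.04 ± 0.10 in DDC fed (adjusted p = 0.970) and 0.29 ± 0.10 in E18 (0.0688). The depth behind these values is unknown, so Cftr in DDC fed hepatocytes could be described only as listed at under 0.03 TPM.

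**Figure D2:**
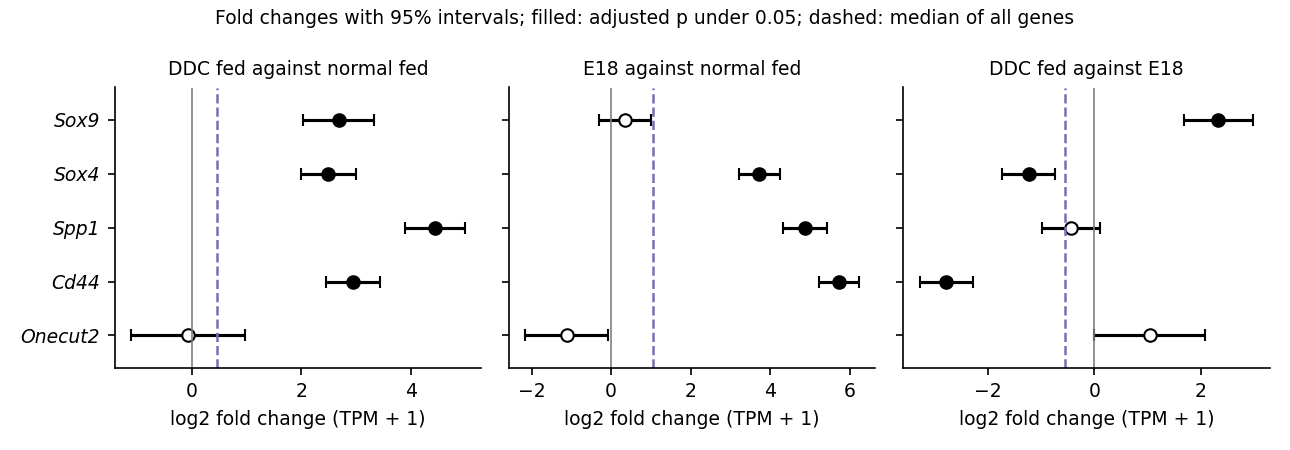
Log2 fold changes of the 5 tested genes (horizontal axes) with 95% intervals in the 3 comparisons, with filled points for adjusted p under 0.05 and a dashed line at the median of all tested genes. In E18 against normal fed, Sox9 lies below the dashed line at 1.06 and Cd44 farthest above it.

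Of the 5 tested genes, 4 passed as higher in DDC fed, where 34.2% of all genes did, and 3 passed as higher in E18, where 63% did. None was lower in E18 at the threshold. Between DDC fed and E18, Sox9 was higher and Sox4 and Cd44 were lower. Groups did not overlap for 4 of the 5 in DDC fed against normal fed, where 71.4% of all genes did not overlap. In the other comparisons no tested member overlapped, against 86.4% of all genes for E18 against normal fed and 90% for DDC fed against E18. Sox4 and Cd44 reached the 1 TPM minimum only through DDC fed and E18 samples and so had to differ, and the counts describe the genes chosen and nothing more.

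The make-up of the set changed with the group. The summed TPM of the 6 genes was 25.5 and 11.9 in normal fed, 94.1 and 117 in DDC fed, and 191 and 166 in E18. Onecut2 made up 83.0% and 69.8% of that sum in normal fed, 12.7% and 11.5% in DDC fed, and 3.94% and 2.52% in E18. Spp1 made up 60.1% and 57.7% in DDC fed. In E18, Cd44 took 35.8% and 45.2% and Spp1 took 51.9% and 43.2%.

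**Figure D3:**
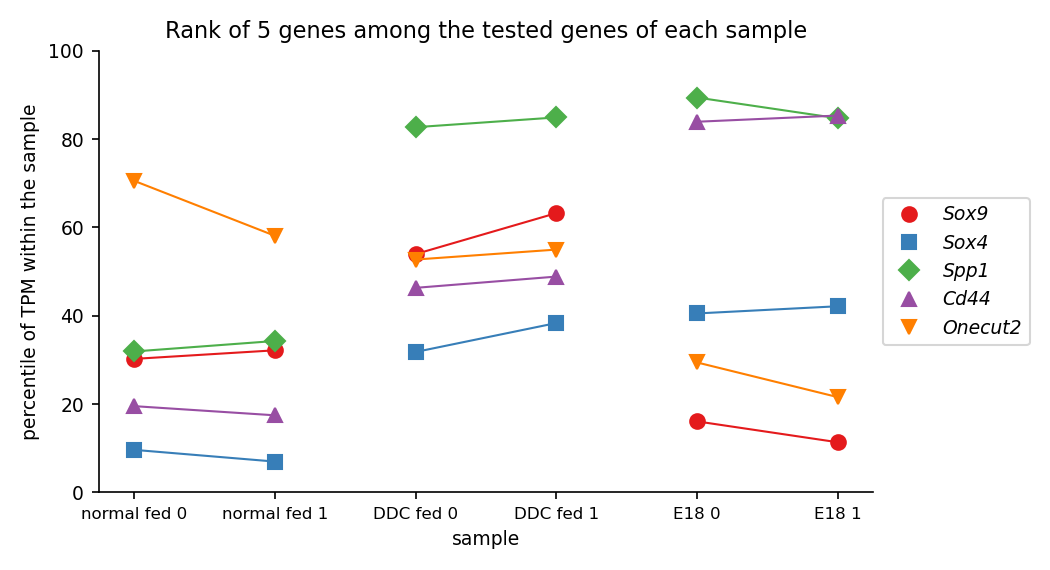
Percentile of each tested gene's TPM among the tested genes of the same sample (vertical axis), by sample, with lines joining the 2 samples of a group. Spp1 goes from percentiles 31.9 and 34.3 in normal fed to 82.7 and 84.9 in DDC fed, while Onecut2 drops from 70.6 and 58.1 in normal fed to 29.4 and 21.5 in E18.

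Likeness of pattern was measured as the root mean square difference of log2(TPM + 1) over the 6 samples after centring each gene. Sox4, Spp1 and Cd44 were the closest of the members to each other, at 0.81 for Sox4 and Spp1, 0.86 for Sox4 and Cd44 and 0.98 for Spp1 and Cd44. By this measure the member nearest Sox9 was Onecut2, at 1.18, although Onecut2 had no DDC fed peak, and Sox4 lay at 1.65. Cd44 and Onecut2 were farthest apart, at 2.82. Among all tested protein-coding genes, Inava (0.08) and Usp43 (0.15) were most like Sox9, Pitpnm1 and Neurl3 (both 0.12) most like Sox4, and Tnfaip3 (0.22) and Slc25a24 (0.24) most like Spp1. Hmmr (0.10) and Ckap2l (0.12) were most like Cd44, and Zyg11a (0.12) and Exph5 (0.13) were among the most like Onecut2.

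Annotated genes that overlap the members were listed at low levels. Sox9 and Onecut2 overlap none. Spp1 shares its strand with Gm42793, listed at 0 in normal fed and at 0.357 and 0.610 TPM in DDC fed and 1.73 and 0.855 TPM in E18. The opposite-strand Gm26735 at Sox4 reached at most 0.0507 TPM, and the genes overlapping Cd44 and Cftr were at 0.

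The wider duct programme was described with lists of related genes. Their counts stand beside the 34.2% of all genes higher in DDC fed and the 63% higher in E18. Lower were 3.07% of all genes in DDC fed and 12.7% in E18. The list medians stand beside 0.45 and 1.06. Among 20 tested biliary epithelial markers, 12 were higher and 0 lower in DDC fed, and 16 were higher and 1 lower in E18. Their median log2 fold changes were 1.43 and 1.76, and 9 were higher in E18 after quantile normalization. Of the 20, 17 were below 1 TPM in both normal fed samples and were tested only because they were higher elsewhere, so these counts are a description and not support for a rise of the list. The same holds for 4 of the 14 secretion genes, 6 of the 18 reprogramming genes and 5 of the 20 signalling genes described next. Prom1, a surface protein of duct progenitors, went from 0.0273 and 0.0312 TPM in normal fed to 16.7 and 11.3 TPM in DDC fed (log2 fold change 3.84 ± 0.23, adjusted p = 9.7e-05). Elf3, an epithelial transcription factor, went from 0.645 and 0.424 TPM to 69.5 and 102 TPM (5.80 ± 0.39, adjusted p = 0.00013), and the cytokeratin gene Krt23 rose by 3.33 ± 0.22.

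The duct keratins Krt19 and Krt7 stayed at or under 0.227 TPM in every adult sample. Krt19, the cytokeratin used to stain bile ducts, measured 0.0482 and 0 TPM in normal fed samples, 0.0909 and 0.227 TPM in DDC fed, and 10.9 and 5.66 TPM in E18. Its log2 fold change was 0.18 ± 0.26 in DDC fed (adjusted p = 0.628) and 3.12 ± 0.26 in E18 (4.5e-05). Krt7 measured 0.0637 and 0.0239 TPM in DDC fed and 4.23 and 2.92 TPM in E18. Epcam, the adhesion molecule of duct cells and hepatoblasts, measured 1.22 and 1.39 TPM in DDC fed against 0.0534 and 0.0441 TPM in normal fed (1.13 ± 0.43, adjusted p = 0.0787). The Epcam difference passed when E18 sample 0 (adjusted p = 0.00458) or E18 sample 1 (0.00559) was left out of the fit.

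Cftr works with a set of transporters that make bile watery and alkaline. Of 14 tested genes of ductal secretion and transport, 12 were higher and 0 lower in DDC fed (median 1.33), and 10 were higher and 3 lower in E18 (median 1.41). Slc51b, a subunit of the basolateral bile acid exporter, measured 1.52 and 2.24 TPM in normal fed samples, 46.5 and 50.2 TPM in DDC fed, and 2.80 and 1.49 TPM in E18. It was 4.11 ± 0.27 higher in DDC fed than in normal fed (adjusted p = 0.00012). Itpr3, the calcium-release channel at the apical pole of cholangiocytes, rose by 1.99 ± 0.17. Car2, a carbonic anhydrase that red cells also carry, rose by 1.99 ± 0.27 in DDC fed and by 7.71 ± 0.27 in E18. The secretin receptor Sctr, which drives CFTR in cholangiocytes, was under 0.15 TPM in every sample and was not tested. The count of 12 fell to 5 without DDC fed sample 0, to 6 without DDC fed sample 1 and to 6 after quantile normalization, which gave 6 in E18 as well.

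Genes reported in reprogrammed or injured hepatocytes went the same way in DDC fed, with 16 of 18 tested higher and 0 lower (median 2.79), and in E18 14 were higher and 1 lower (median 5.06). Cd63, a lysosome and exosome membrane protein, rose by 7.34 ± 0.19 in DDC fed (1.55 and 1.13 TPM to 370 and 381 TPM). Vcam1, an adhesion molecule, rose by 4.49 ± 0.19 in DDC fed and by 6.53 ± 0.19 in E18. Tnfrsf12a, the TWEAK receptor, shared the Sox9 pattern of a DDC fed peak, at 17.1 and 28.9 TPM in normal fed samples, 169 and 187 TPM in DDC fed and 8.97 and 4.56 TPM in E18. It rose by 2.94 ± 0.35 in DDC fed and was lower in E18 (-1.64 ± 0.35, adjusted p = 0.0047), a call missed without E18 sample 1 at -1.22 (0.0579). Cd24a measured 5.13 and 5.97 TPM in DDC fed and rose by 9.79 ± 0.25 in E18.

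Among 20 tested genes of Notch, YAP/TEAD and TGF-beta signalling, 14 were higher and 0 lower in DDC fed (median 1.16), and 17 were higher and 1 lower in E18 (median 1.49). The ligand gene Tgfb2 rose by 2.12 ± 0.14 in DDC fed and its receptor gene Tgfbr2 by 4.23 ± 0.33. Wwtr1 (TAZ), a relative of YAP, rose there by 2.24 ± 0.22 and the YAP target Ccn2 by 3.18. Notch2, the receptor that is needed for duct formation, measured 5.54 and 2.07 TPM in normal fed samples, 9.01 and 8.90 TPM in DDC fed, and 14.2 and 14.1 TPM in E18. Its DDC fed fold of 1.15 ± 0.35 (adjusted p = 0.0408) missed the threshold after median-ratio scaling, at 0.62 (0.14), and when any DDC fed or E18 sample was left out. Hes1, a Notch target named here after its values were seen, measured 16.2 and 8.38 TPM in normal fed samples, 73.5 and 81.2 TPM in DDC fed, and 18.5 and 15.1 TPM in E18 (DDC fed 2.62 ± 0.31, adjusted p = 0.00099). The count of 14 fell to 9 without DDC fed sample 0, to 8 without DDC fed sample 1 and to 7 after quantile normalization, and the E18 count of 17 then fell to 8. Yap1 itself was not called in DDC fed (0.37, adjusted p = 0.345), and its sign turned after median-ratio scaling (-0.28).

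Few hepatocyte fate factors passed in DDC fed. Of 19 tested, 2 were higher, 1 lower and 16 did not pass (median -0.03). Among all genes, 37.3% passed in DDC fed (34.2% higher, 3.07% lower), and in E18 63% were higher and 12.7% lower. Hnf4a, the master factor of hepatocyte identity, measured 371 and 193 TPM in normal fed samples, 273 and 251 TPM in DDC fed, and 106 and 59.0 TPM in E18. It was -0.03 in DDC fed (adjusted p = 0.969) and -1.75 ± 0.39 in E18 (0.0058), which became -1.33 (0.0765) without E18 sample 1. Gata6 (1.35 ± 0.29) and Nr5a2 (0.95 ± 0.30) were the factors called higher in DDC fed, and Onecut1 the one called lower. Neither Gata6 nor Nr5a2 passed after quantile normalization or when any DDC fed or E18 sample was left out, and Nr5a2 did not pass without normal fed sample 1. The DDC fed count of 2 higher became 7 without normal fed sample 0 and 0 when any DDC fed or E18 sample was left out, and the count of 1 lower became 5 without normal fed sample 1 and 4 after median-ratio scaling. In E18, 6 were lower and 1 higher, and the 6 became 16 after median-ratio scaling, 14 without normal fed sample 1 and 3 without E18 sample 1.

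Within the families of the members, 3 of 7 other tested SOX genes were higher in DDC fed and 6 in E18, with none lower. Over all tested genes, 34.2% were higher and 3.07% lower in DDC fed, and 63% were higher and 12.7% lower in E18. The 3 were Sox13 (0.93), Sox17 (0.89) and Sox18 (1.14), the last pair being endothelial SOX factors. The count of 3 became 0 after quantile normalization, where Sox12 was called lower (-1.23), 1 after median-ratio scaling, where Sox12 was also lower (-0.87), 1 when any DDC fed or E18 sample was left out, and 2 without normal fed sample 1. Sox12, the close relative of Sox4, measured 3.04 and 1.81 TPM in normal fed samples, 1.63 and 1.55 TPM in DDC fed, and 12.8 and 12.9 TPM in E18, where it rose by 2.04 ± 0.22. The E18 count of 6 became 2 after quantile normalization. In both normal fed samples 2 of the 7 other SOX genes were below 1 TPM and entered the test through the other groups.

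Onecut1, the hepatocyte relative of Onecut2, measured 144 and 26.1 TPM in normal fed samples, 10.2 and 10.4 TPM in DDC fed, and 38.6 and 18.9 TPM in E18. It was lower in DDC fed by the fit (-2.47 ± 0.74, adjusted p = 0.0384). The fold was -1.27 without normal fed sample 0 and -3.68 without normal fed sample 1, and the call was lost when either DDC fed sample or either E18 sample was left out. The other CUT genes rose in E18, Cux1 by 2.02 ± 0.31, Cux2 by 3.42 ± 0.23 and Satb1 by 3.01 ± 0.13. None of them passed in DDC fed, while Onecut3 was listed at 0 in DDC fed. Below 1 TPM in both normal fed samples were 2 of the family's 4 tested genes, which entered the test through the other groups. The shares over all tested genes were 34.2% higher and 3.07% lower in DDC fed, and 63% higher and 12.7% lower in E18. Of the 4 tested genes of the ONECUT and CUT family, 0 were called higher in DDC fed, or 1 without normal fed sample 0, and Cux1 measured 21.6 and 19.1 TPM there against 15.5 and 7.72 TPM in normal fed samples (0.83 ± 0.31, adjusted p = 0.079).

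Osteopontin acts through integrins. All 8 tested integrin subunits that bind it were higher in DDC fed (median 1.56) and in E18 (median 2.60). Of all genes, 34.2% and 63% were higher. In both normal fed samples 3 of the 8 were below 1 TPM and entered the test through the other groups, so these counts are a description only. Itga9, which pairs with ITGB1, rose by 2.27 ± 0.22 in DDC fed and by 3.99 ± 0.22 in E18. Itgb5 rose by 2.07 ± 0.35 in DDC fed and was 0.99 ± 0.35 higher there than in E18 (adjusted p = 0.0414), a call lost when any DDC fed or E18 sample was left out, while Itgb3, a platelet and megakaryocyte integrin as well, reached 115 and 121 TPM in E18. The DDC fed count of 8 fell to 4 without DDC fed sample 0, to 5 without DDC fed sample 1 and to 4 after quantile normalization.

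Among 14 tested CD44 ligands, processing enzymes and partners, 9 were higher and 0 lower in DDC fed (median 1.44). In E18, 12 were higher and 0 lower (median 3.26). Beside these counts, 34.2% of all tested genes were higher and 3.07% lower in DDC fed, and 63% higher and 12.7% lower in E18. In both normal fed samples 5 of the 14 were below 1 TPM and entered the test through the other groups, so these counts are a description only. Hmmr, another hyaluronan receptor of this list and a gene of dividing cells, rose by 2.81 ± 0.19 in DDC fed and by 5.75 ± 0.19 in E18. Msn, the moesin that ties CD44 to actin, rose by 2.66 ± 0.32 and 5.89 ± 0.32, and Hbegf, a growth factor that CD44 presents, rose by 2.75 ± 0.31 in DDC fed. Esrp2, an epithelial splicing factor that acts on Cd44, measured 44.5 and 34.1 TPM in normal fed samples, 38.2 and 42.8 TPM in DDC fed, and 32.0 and 21.6 TPM in E18 (DDC fed 0.05, adjusted p = 0.907). The table is per gene, so Cd44 isoforms were not analysed here.

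Markers of other liver cells moved with these genes. Their counts stand beside the 34.2% of all genes higher in DDC fed and the 63% higher in E18. All 20 macrophage markers were higher in DDC fed and 19 of 20 in E18, with summed levels of 146 to 192 TPM in normal fed samples, 1517 to 1819 in DDC fed and 4473 to 5741 in E18. Stellate cell and fibroblast markers summed to 18.7 to 37.9 TPM in normal fed samples, 422 to 474 in DDC fed and 378 to 414 in E18, with 16 of 17 higher in each. Endothelial markers summed to 28.8 to 92.4, 315 to 332 and 821 to 859 TPM, with 17 of 18 higher in DDC fed, or 8 to 10 when a DDC fed or an E18 sample was left out. Biliary epithelial markers summed to 108 to 136, 455 to 463 and 183 to 302 TPM. Of the 20 tested, 17 were below 1 TPM in both normal fed samples, so the sum there rests mostly on the other markers. In normal fed samples 5 of the 20 macrophage, 12 of the 17 stellate and 4 of the 18 endothelial markers were below 1 TPM, so those entered the test through the other groups. Spp1 is also made by macrophages and Cd44 by leukocytes, and the part of these cells in the rise of Spp1, Cd44, Sox4 and Sox9 was not tested.

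Neutrophil markers summed to at most 4.99 TPM in DDC fed samples, with 3 of 12 higher (0 without either DDC fed sample), and to 57335 and 68399 TPM in E18 samples, with 12 of 12 higher. All 12 neutrophil markers were below 1 TPM in both normal fed samples. They entered the test through the other groups, so these counts are a description only. Of all genes, 34.2% were higher in DDC fed and 63% in E18. Markers of T, B and NK cells summed to at most 3.57 TPM in DDC fed and to 115 and 154 TPM in E18. Erythroid markers summed to 38.1 TPM in both DDC fed samples and to 13188 and 24664 TPM in E18. The pan-leukocyte gene Ptprc measured 0.697 and 0.534 TPM in normal fed samples, 5.11 and 5.71 TPM in DDC fed, and 55.7 and 66.4 TPM in E18, the same order as Cd44. The E18 levels of all 6 genes were measured in samples with this blood-cell RNA, whose part in them was not tested.

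**Figure D4:**
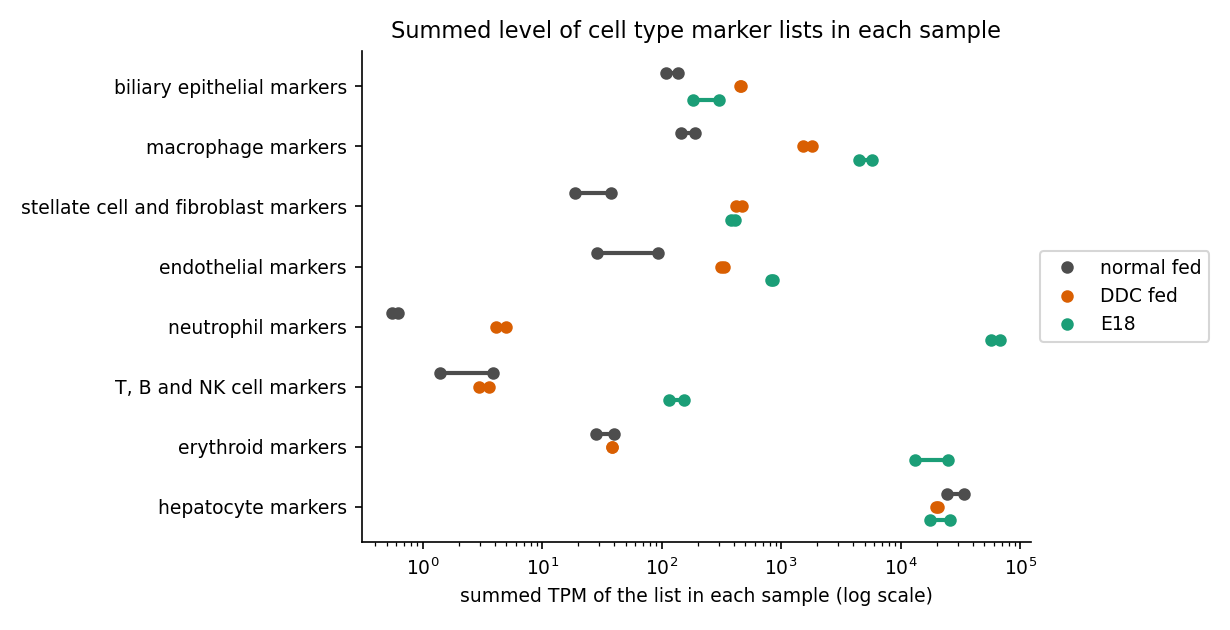
Summed TPM of 8 marker lists in each sample (horizontal axis, log scale), with a point per sample and a bar joining the 2 samples of a group. Macrophage, stellate and endothelial sums are higher in DDC fed and E18 than in normal fed, and neutrophil and erythroid sums are higher in E18 by orders of magnitude. The hepatocyte sums of E18 include Apoa1 and Apoe, listed at 0 in the adult samples.

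Hepatocyte markers were read as a check of the label. Alb, the main secreted product of hepatocytes, was listed at 0 in all 6 samples, Apoa1 and Apoe in both adult groups and Serpina1a in normal fed, so a 0 in this table is not read as absence. The 14 markers above 0 in every group, a restriction made after the data were seen, summed to 24546 to 34045 TPM in normal fed, 19285 to 19890 TPM in DDC fed and 4883 to 7667 TPM in E18. Of 17 tested markers, 1 was higher and 3 lower in DDC fed, and 3 were higher and 11 lower in E18 (median -1.75). Of all genes, 34.2% were higher and 3.07% lower in DDC fed, and 63% were higher and 12.7% lower in E18. The marker called higher in DDC fed, Serpina1a, and the 3 called higher in E18, Apoa1, Apoe and Serpina1a, are those listed at 0 in normal fed. The DDC fed count of 3 lower became 1 without either DDC fed sample, and the count of 1 higher became 3 without normal fed sample 0.

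**Figure D5:**
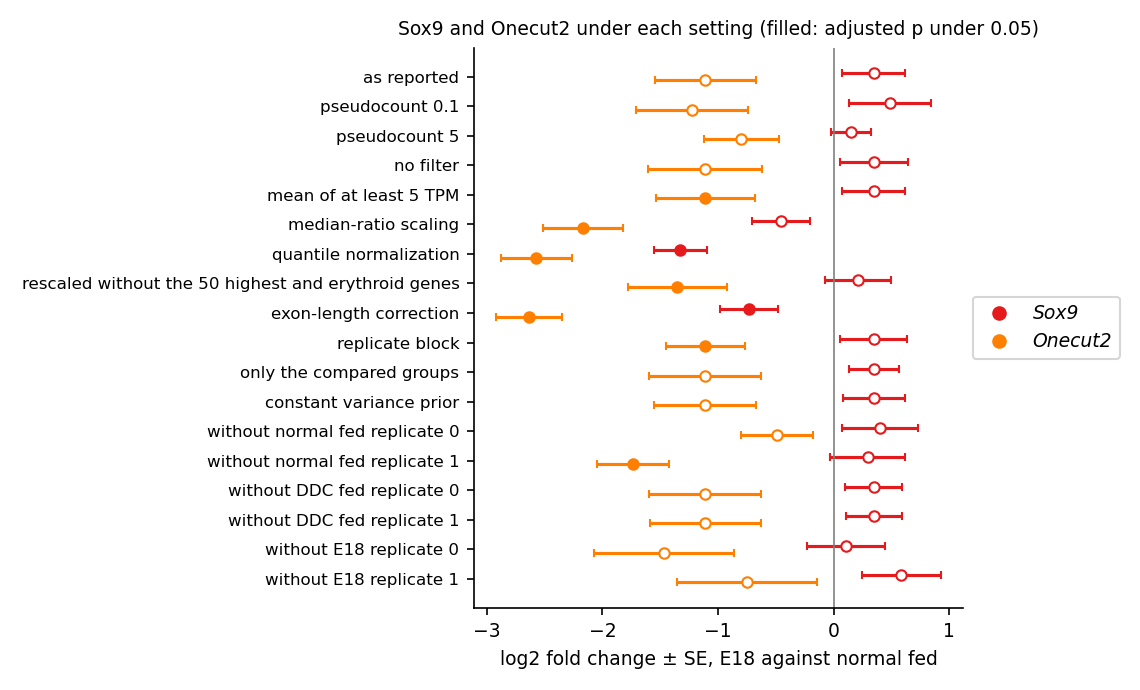
Log2 fold change ± SE of Sox9 and Onecut2 in E18 against normal fed (horizontal axis) as reported and under every other setting apart from the stricter threshold, with filled points for adjusted p under 0.05. Sox9 crosses 0 under 3 settings, and Onecut2 stays below 0 and passes under several.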

How the data were processed

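Poly(A) RNA of 6 hepatocyte samples was sequenced from stranded libraries, per the labels' protocols. The authors deposited TPM per gene. The submitters' processing notes list the build GRCm38 (mm10) and the tools STAR 2.4.2a, Cuffdiff 2.2.1, HTSeq, DESeq2, Picard 1.119 and Trimmomatic, and the tool behind the TPM is not given in the sources used here. There are no counts, so depth and counting error are unknown. Columns numbered 0 and 1 were assigned to groups, not to single sample titles. Of the identifiers, 48053 of 48432 matched GENCODE M21 (GRCm38), which gave symbols and exon lengths. The 14307 genes that reached 1 TPM in 2 or more samples were fitted with limma 3.58.1 in R 4.3.3 on log2(TPM + 1), with 1 mean per group, 3 residual degrees of freedom and a variance trend. P-values are two-sided and adjusted by Benjamini and Hochberg over the tested genes. The fit was tested on simulated data.

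The members and the 16 gene lists were chosen with earlier results of these data known. The text names all members, of each list the called genes (the 4 with the smallest adjusted p where more than 5), the 5 most similar genes per member, of which the closest are given, and a fixed panel of duct, hepatocyte and other cell markers. A whole group is listed at 0 for 80 genes that reach 100 TPM elsewhere. The alternatives were pseudocounts of 0.1 and 5, quantile normalization, median-ratio scaling, no filter, a filter on the mean at 5 TPM, rescaling without the 50 highest and the erythroid genes, an exon-length correction, the replicate number as a term, only the compared groups, a constant variance prior, an adjusted p of 0.01, and each sample left out. A few named genes and 1 motif are not reported here.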

Additional observations from a re-analysis of the deposited data

How the results depend on the processing

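The calls of Sox9, Sox4, Spp1 and Cd44 in DDC fed against normal fed, of Sox4, Spp1 and Cd44 in E18 against normal fed, and of Sox9 and Cd44 in DDC fed against E18 kept their direction and side of the threshold under all 18 alternatives. Sox9 ranged from 1.66 to 3.20 in DDC fed and Spp1 from 3.27 to 4.95. Depth is unknown, so the precision of values under 1 TPM is not known, and a mean of at least 5 TPM lowers list counts because fewer genes are tested.

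Onecut2 in DDC fed ranged from -0.69 to 0.56 when single samples were left out, above 0 without normal fed sample 0 (0.56) and without DDC fed sample 0 (0.01). Sox9 in E18 turned to -0.45 with median-ratio scaling, -1.33 with quantile normalization and -0.73 with the exon-length correction. Onecut2 in E18 passed at -1.11 with a mean of at least 5 TPM (adjusted p = 0.0490), -2.17 with median-ratio scaling, -2.57 with quantile normalization, -1.35 after rescaling and -2.63 with the exon-length correction, and ranged from -1.74 to -0.49 with samples left out. Members lower in E18 were then 1, or 2 with quantile normalization and the exon-length correction, against 0 as reported, and 0 to 1 with samples left out. In DDC fed against E18, Spp1 turned to 0.0807 with median-ratio scaling and Sox4 missed the threshold at -0.44 with quantile normalization, leaving 1 member lower in place of 2. Onecut2 passed there at 1.47 with median-ratio scaling, 1.93 with quantile normalization, 1.93 with the exon-length correction and 1.04 with only the compared groups, and ranged from 0.68 to 1.40 with samples left out. Members higher were then 2 in place of 1, and 1 to 2 with samples left out. Among other named genes, differences in DDC fed that had not passed changed sign. Yap1 turned to -0.280 with median-ratio scaling, -0.114 with quantile normalization and -0.261 with the exon-length correction. Esrp2 turned to -0.610, -0.384 and -0.520 under the same settings and to -0.122 after rescaling, and Krt19 to -0.212 with the exon-length correction. With samples left out, Hnf4a ranged from -0.503 to 0.436 and Esrp2 from -0.137 to 0.237. The cause of these changes was not tested.

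With the replicate number as a block, Onecut2 passed at -1.11 in E18 (adjusted p = 0.0181) and at 1.04 in DDC fed against E18 (0.0279), giving 1 member lower and 2 higher, and other member calls kept. Same-numbered samples deviated together at correlations of 0.233, 0.139 and 0.0605, so the numbers were not taken to pair the samples.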

Other observations

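In DDC fed against E18, where 17.7% of all genes were higher and 47% lower in DDC fed, 8 of 20 tested biliary epithelial markers were higher and 9 lower. Elf3 was 4.24 ± 0.39 and Krt23 1.92 ± 0.22 higher in DDC fed, and Krt19 was -2.94 on the same log2 scale. Of the 14 secretion and transport genes, 4 were higher and 6 lower. Slc51b was 4.00 ± 0.27 higher, and Slc10a2, the apical bile acid importer, measured 52.8 and 49.8 TPM in DDC fed against 0.00625 and 0 TPM in E18. Slc10a2 was lower in E18 than in normal fed as well (-4.59 ± 0.20). Its DDC fed fold against normal fed was 1.11 (adjusted p = 0.0062), or 0.46 (0.22) after median-ratio scaling. Of the 19 hepatocyte fate factors, 11 were higher in DDC fed and 1 lower, with 3 higher without E18 sample 1, 7 without E18 sample 0 and 4 without either DDC fed sample. Of the 7 other SOX genes, 6 were lower in DDC fed and none higher, with 3 lower when either E18 sample was left out.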
